A study of Drosophila melanogaster with 3 samples.

Results

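Dense clusters of CG8632-eGFP peaks were described in whole Drosophila white prepupae. CG8632 is the older name of ZnT49B, which encodes a member of the zinc transporter family, and the tagged protein was assayed by chromatin immunoprecipitation with an anti-GFP antibody followed by sequencing (ChIP-seq). The members were chosen by their neighbours: a peak of the final set was a member when at least 4 other peaks of that set had their summits within 10 kb on either side. By this rule 1752 of 6469 peaks were members, and joining members whose summits lay 10 kb or less apart gave 318 loci. The other 4717 peaks served as the comparison unless another is named. Because the rule used peak positions, the number and spacing of members are a description without a test. The peaks of 1 locus share their surroundings and are not independent observations.

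The study had 1 group of 3 biological replicates. All came from the transgenic strain CG8632-GFP, which stably expresses CG8632 with GFP fused to its C-terminus, and were mixed-sex whole animals collected as white prepupae, with chromatin sheared by sonication. The line is a single transgenic line, the promoter that drives the fusion is not given in the sources used here, and whole animals mix all tissues, so that binding in few cells and weak binding in many cells cannot be told apart. No input or untagged sample was analysed here, and how far the clusters depend on the tagged protein was not tested. The final set was made by the irreproducible discovery rate (IDR) procedure, which keeps peaks that rank alike in replicates; it equalled the 6469 strongest of 30000 calls made on the 3 replicates together. Each replicate also had its own relaxed list of 29322 to 30000 calls, and its 6469 strongest calls were compared with the pooled set. The pooled set was made from the same reads as the replicate lists, so that agreement between them is not independent evidence. Read depth is unknown from these files.

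The white prepupa marks the start of metamorphosis, when a pulse of the steroid ecdysone, acting through the nuclear receptor EcR and its partner Usp, switches on early transcription factor genes. Genes that control development in the fly often lie in long stretches of non-coding DNA that hold many enhancers, short elements that transcription factors bind and that act on a promoter at a distance. Zinc transporters move zinc across membranes and are not known as DNA-binding proteins. No enhancer map or expression data were used here, and whether these loci are regulatory was not tested.

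The strongest member peak of 5 of the 6 loci with most members is printed as the 201 bases centred on its summit, on the plus strand of genome build dm6, because these windows show what the sequence under a cluster peak looks like. Capitals mark the 5-letter element CAGTG or its reverse complement CACTG, which was chosen for display after these sequences had been seen. The hng3 window is chr3L:738817-739017, the heca window chr3R:30296053-30296253, the aop window chr2L:2202296-2202496, the CG43245 window chr3L:10776461-10776661 and the tara window chr3R:16236862-16237062.
hng3: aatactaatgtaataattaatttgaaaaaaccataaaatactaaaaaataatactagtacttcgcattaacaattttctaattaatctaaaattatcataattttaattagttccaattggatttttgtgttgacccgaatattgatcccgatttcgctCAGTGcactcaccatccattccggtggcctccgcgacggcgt
heca: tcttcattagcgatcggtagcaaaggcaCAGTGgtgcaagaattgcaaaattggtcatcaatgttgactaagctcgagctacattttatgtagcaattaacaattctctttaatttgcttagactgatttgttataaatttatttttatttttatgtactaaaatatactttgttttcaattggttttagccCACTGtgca
aop: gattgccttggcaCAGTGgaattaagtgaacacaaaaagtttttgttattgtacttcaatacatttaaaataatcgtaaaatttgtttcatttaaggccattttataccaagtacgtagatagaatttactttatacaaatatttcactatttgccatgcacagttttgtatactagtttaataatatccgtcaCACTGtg
CG43245: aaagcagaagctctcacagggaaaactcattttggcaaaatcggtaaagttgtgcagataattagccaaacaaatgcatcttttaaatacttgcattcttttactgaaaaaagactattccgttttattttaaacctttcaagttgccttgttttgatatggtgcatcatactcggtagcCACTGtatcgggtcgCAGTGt
tara: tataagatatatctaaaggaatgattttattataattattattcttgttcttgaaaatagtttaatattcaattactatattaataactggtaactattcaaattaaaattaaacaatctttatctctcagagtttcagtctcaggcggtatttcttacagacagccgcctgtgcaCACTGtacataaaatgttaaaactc

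These windows were rich in A and T, with a G+C content from 26.4% at tara to 36.8% at CG43245. The signal value of the peak, the authors' peak-caller score for its height, was 936.8 in the hng3 peak in the pooled set and 372.9, 247.8 and 315.4 in replicates 1, 2 and 3. At heca the pooled value was 774.8, and the replicate values were 254.4, 207.1 and 307.9. The aop peak was the strongest of the 5, with a pooled value of 2234 and replicate values of 914.4, 578.7 and 736.5. Its rank by signal was 9 among all 6469 peaks, and 6, 16 and 13 in the replicate lists. The CG43245 peak had 1539 in the pool and 553.1, 515.2 and 491.6 in the replicates, and the tara peak 924.6 and then 386.5, 291.3 and 266.1. The element stood within 100 bp of the summit in each of the 5 printed windows, from which it was picked, while its share among all member windows was 43.9%. At heca and aop it stood on both sides of the summit, at -70 and 94 bp and at -85 and 96 bp.

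Most peaks had some company, and dense clusters were the upper tail of that distribution. No other summit lay within 10 kb of 1159 peaks, and 13 others lay around the most crowded 1. Just inside the threshold were 702 members with exactly 4 neighbours, whose median signal was 189.3 and of which 26.2% lay within 500 bp of a transcript start. Just outside were 946 peaks with 3 neighbours, with a median signal of 191.9 and 31.3% at a transcript start. Peaks on either side of the threshold therefore differed little in signal. In the replicate lists the same rule gave 1753, 1691 and 1726 members (1723 ± 31.1, SD, n = 3) in 322, 308 and 302 loci. Of the 318 pooled loci, 253, 245 and 248 overlapped a locus found in replicates 1, 2 and 3 (78.2% ± 1.27). When only peaks recovered among the strongest calls of 2 replicates were kept, 1019, 1056 and 1029 members remained without replicates 1, 2 and 3.

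**Figure D1:**
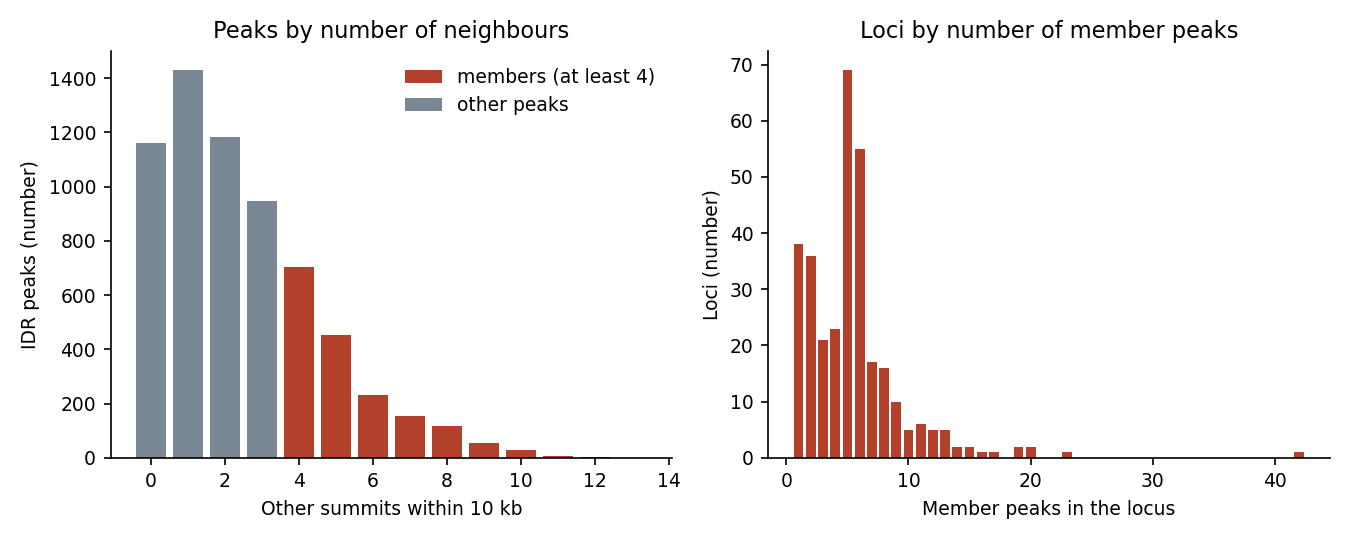
Left, the number of IDR peaks (y axis) by the number of other summits within 10 kb (x axis), with members in red; right, the number of loci (y axis) by the number of member peaks in the locus (x axis). Of the 6469 peaks 1752 are members, 5 is the median number of members in a locus, and 1 locus stands apart with 42.

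A locus held a median of 5 members (quartiles 3 and 6). There were 38 loci with a single member, whose neighbours had too few neighbours of their own to be members, and 33 loci with at least 10 members. Those 33 loci held 475 peaks, which is 27.1% of all members. The median distance from the first to the last summit of a locus was 8.57 kb (quartiles 4.17 and 11.9), and all loci together covered 3149 kb, or 2.35% of the main chromosome arms. Neighbouring members within a locus were a median of 1581 bp apart (quartiles 779 and 3025, 1434 intervals), against 5855 bp between neighbouring peaks of the whole set, a difference that the rule builds in. The summed signal of a locus had a median of 1256 and ran from 105.3 to 10312. The relaxed pooled calls that fell below the IDR cut were also denser in the loci, at 4.34 calls per 10 kb against 1.70 elsewhere. Elsewhere is the rest of the main arms, which takes in DNA without any peak. The surroundings of the other peaks were not set apart. The relaxed calls were not used by the rule, but they come from the same reads.

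The largest cluster covered 99975 bp of chromosome arm 3L, chr3L:724659-824634 in dm6. The stretch takes in emc, which encodes the Id-type helix-loop-helix repressor of proneural factors. It held 42 members, against 23 in the next locus, and its summed signal of 10312 was the highest of all loci. Of its members, 7 lay in the gene hng3, within whose body emc lies, and 2 of those 7 lay in emc itself. By the rule emc held 0, 1 and 1 in the replicate lists, and 10 of the 42 members lay in it or within 10 kb. A further 7 lay in the 25.8 kb between CG13896 and hng3, 18 in the 47.9 kb between hng3 and CG13898 and 10 in the 22.7 kb between CG13898 and Sf3b3. Only 6 of the 42 were within 500 bp of a transcript start. Among the strongest calls of replicates 1, 2 and 3 were 32, 37 and 40 of the 42, and 27 were there in all 3. The summed signal of the calls over these members was 3981, 2924 and 4020 in the replicates, the highest of the 318 loci in each.

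The next 2 loci lay at genes of cell differentiation and receptor signalling. At heca (chr3R:30255621-30296153), which encodes Headcase, a cytoplasmic protein needed in imaginal cells, 23 members covered 40.5 kb, 11 of them in the gene and 12 upstream between genes. None was at a transcript start. The strongest calls of the replicates included 20, 23 and 23 of them, with a summed signal of 3598, 2251 and 3010. At aop (chr2L:2161914-2202396), which encodes the ETS-domain repressor Yan that receptor tyrosine kinase signalling inactivates, 20 members covered 40.5 kb and 10 lay in the gene. Of these 20, replicates 1, 2 and 3 recovered 19, 16 and 16. The signal was uneven along the aop locus: its strongest peak, printed above, stood at the far end, 3770 bp from the nearest transcript start, that of CG31668.

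Several large clusters spanned neighbouring genes or lay between them. The Acsl cluster (chr2R:8634690-8673514) had 20 members, of which 8 lay in Acsl, encoding a long-chain acyl-CoA synthetase, and 5 in the adjacent ptc, encoding the Hedgehog receptor Patched. The CG43245 cluster (chr3L:10735280-10786255) had 19 members, 17 of them intergenic, and covered 51.0 kb in a gap whose nearest flanking protein-coding genes were 38403 and 14935 bp away. The Sema5c cluster had 17 members, all intergenic, between Sema5c, a semaphorin gene, and vers. The Ids cluster had 15 members, all intergenic, between CG12012 and sty, which encodes Sprouty, an inhibitor of receptor tyrosine kinase signalling. The tara cluster had 19 members, 8 in the gene and 11 outside it. For these 5 loci, the strongest calls of each replicate included between 12 and 19 members. In total, 63 of the 318 loci had no member summit in a protein-coding gene, 5 of them with at least 10 members. Members in 2 or more such genes were found at 65 loci.

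Other large clusters were inside 1 gene. All 16 members of the shn locus lay in introns of shn, which encodes the zinc-finger cofactor Schnurri of Dpp signalling, and replicates 1, 2 and 3 recovered 12, 13 and 14. All 13 members at Mnt, the gene of a Max partner that opposes Myc, were intronic, and 12, 11 and 12 were recovered. The sbb locus had 12 intronic members in the gene of the corepressor Brakeless, none at a transcript start, and 12, 11 and 12 were recovered. The tou locus had 13 intronic members, recovered as 13, 8 and 13, so that replicate 2 held fewer of them than the other replicates. Altogether 137 loci had all their members in 1 protein-coding gene, 9 of them with at least 10 members. Counts of loci with all or none of their members of a kind, here and below, are easily met by small loci. Of the loci 38 had 1 member and 36 had 2. The remaining loci among the 20 with most members were CG5151 (15 members), psq (14, of which 7 in psq and 2 in lola, both genes of BTB-domain factors), lncRNA:CR43334 (13), CG6163 (13), glec (12) and kibra (12, of which 2 in eff).

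**Figure D2:**
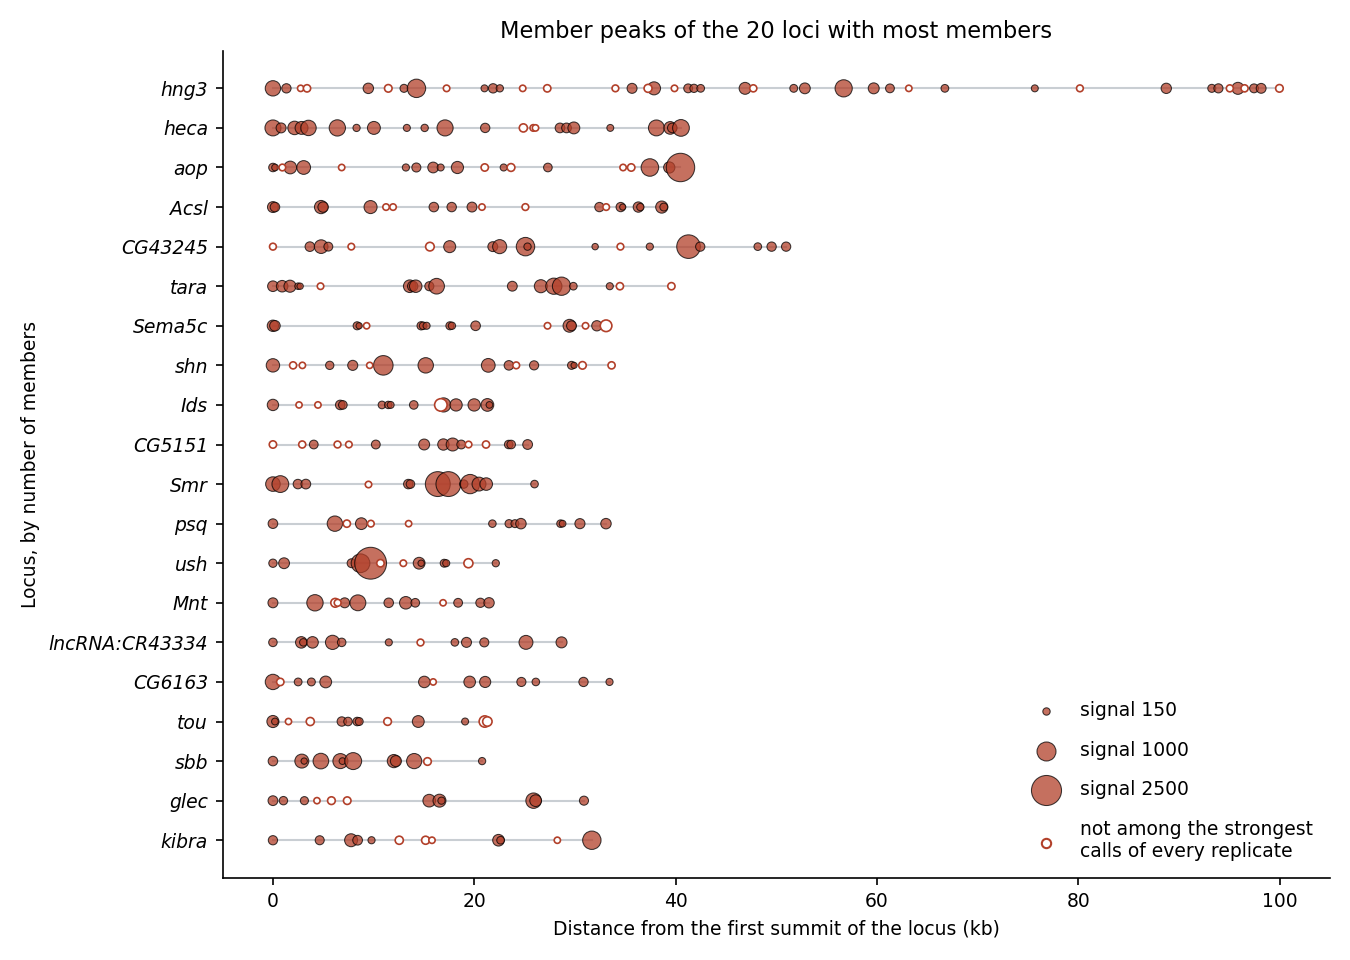
Each row is 1 of the 20 loci with most members, and each circle is a member peak at its distance in kb from the first summit (x axis), with area in proportion to pooled signal; open circles were not among the 6469 strongest calls of every replicate. The hng3 locus runs to 100 kb with 42 peaks, while ush and aop each hold 1 peak far stronger than its neighbours.

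Clusters differed in how their signal was spread. The Smr locus, at the gene of the SMRT-like corepressor Smrter, had 14 members but the third-highest summed signal, 8228. Of the 14, 4 lay in Smr, 3 in CG4004, 1 in pira and 6 outside protein-coding genes, and the strongest lay in an exon of a non-coding gene, 548 bp from the start of lncRNA:CR44619. In replicates 1, 2 and 3 the summed signal at Smr was 3660, 2348 and 2748, which ranked 2, 2 and 3. The ush locus, at the gene of the GATA cofactor U-shaped, held the strongest member of all, with a signal of 2806 in the pool and 1189, 768.8 and 779.2 in the replicates. That peak ranked 3 in the pooled set and 1, 4 and 8 in the replicates, and lay in an intron 1362 bp from the start of cbt. Signal per peak was highest at loci with few members: a single peak in the 5′ UTR of Pyroxd1 (1065), the osa locus (921.4, 5 members), prage (877.1, 2 members), CG32772 (728.7, 6 members) and ph-p (725.2, 5 members). The osa gene encodes a Brahma remodelling subunit and ph-p a Polycomb group protein. All members of these 5 loci were among the strongest calls of every replicate. The 5 lowest loci were single members with a signal of 105.3 to 109.8, at ftz-f1, CG6962, CG6398, gpp and Shrm. None of these 5 was among the strongest calls of every replicate. Both sets of loci were picked by pooled signal, which comes from the same reads as the replicate lists, so that their recovery is not separate evidence.

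**Figure D3:**
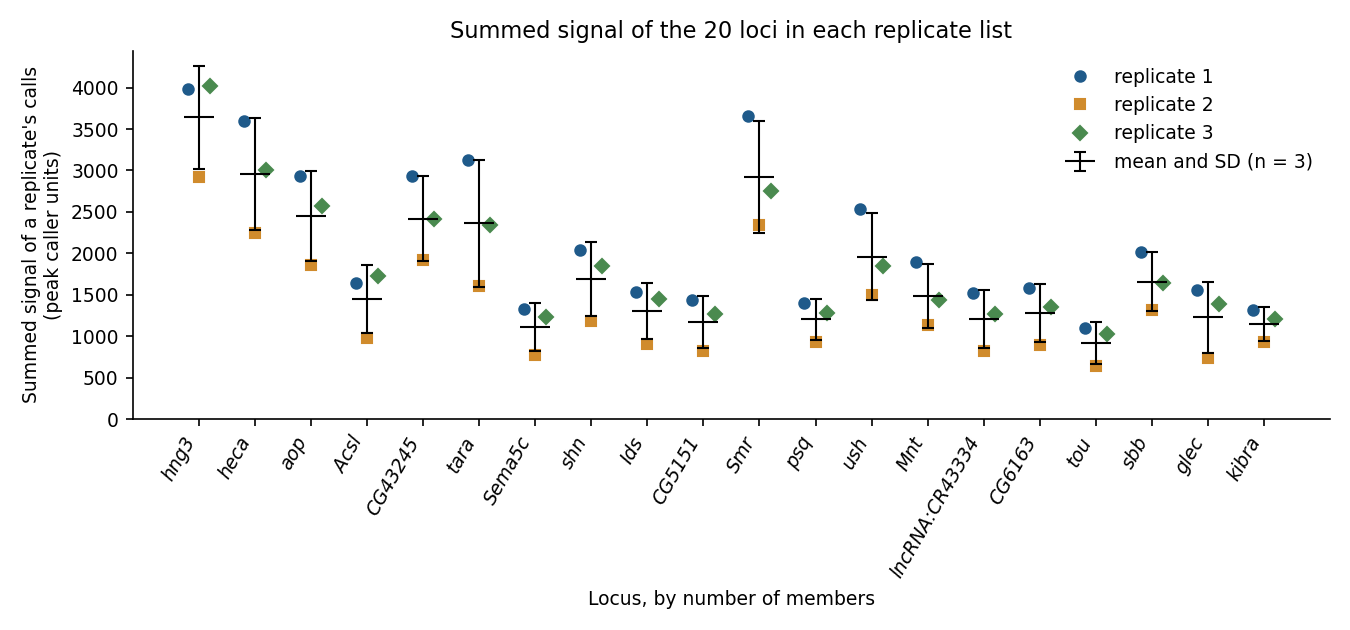
The summed signal of the calls over the members of each of the 20 loci with most members (y axis, peak-caller units, starting at 0), by replicate list, with the mean and SD of 3 replicates. Replicate 2 is the lowest at each of the 20 loci, and hng3 has the highest mean, 3641 ± 621.9.

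Signal values are not scaled between libraries in a way the sources state. Replicate 2 had the lowest median: over the members it was 88.0, 55.1 and 80.6 in replicates 1, 2 and 3. Single peaks could differ, as at CG43245, with 515.2 in replicate 2 and 491.6 in replicate 3. Signal was therefore compared within a list. Members were slightly stronger than other peaks, with a pooled median of 200.4 against 185.2. The ratio of the medians was 1.08 in the pool. Over the same peaks it was 1.18, 1.13 and 1.13 in the replicates (1.15 ± 0.0275). For the replicate values each peak took the strongest call touching it, so that overlapping peaks can share 1 call. Such overlap was more frequent among members, at 19.1% against 9.60% of other peaks, and its part in the ratio was not tested. Under the rule applied to each list's own calls, medians were 81.6 against 72.7, 52.5 against 46.4 and 75.8 against 68.3. Members took 28.8% of the summed signal of the pooled set, for 27.1% of the peaks. In the replicates, with a shared call counted for each peak, the share was 29.7% ± 0.428. Of the 500 strongest peaks 163 were members. The other peaks reached the same heights, with a maximum of 2923 against 2806 in members.

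Of the 6469 peaks, 70.1% overlapped one of the 6469 strongest calls in every replicate list. Among members the count was 1338, or 76.4%, against 67.8% of the other peaks. In each replicate members were recovered more often, at 90.6%, 88.4% and 90.6% against 86.8%, 84.1% and 85.5%, and the ranges of the 3 replicates did not overlap. A member peak can be matched by a neighbour's call, since 19.1% of member intervals overlapped another peak of the set against 9.60% of other peaks. The part of this in the recovery was not tested. All members were recovered in every replicate at 114 loci, 2 of them with at least 10 members, and none at 20. The 33 loci with at least 10 members had 77.5% of their members recovered in every replicate, close to the 76.0% in smaller loci.

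Clustered peaks were away from promoters. Of all peaks 35.2% lay within 500 bp of an annotated transcript start, the region that holds the core promoter. Of members 385, or 22.0% (95% Wilson interval 20.1 to 24.0, counting error only), lay there, against 40.1% of other peaks (38.7 to 41.5). In the replicates, members by the same rule had 21.5%, 20.8% and 24.0% and other calls 40.7%, 39.0% and 43.5%, a difference of -18.9 ± 0.664 percentage points. Groups did not overlap, but the 3 values of a group share 1 annotation. The median distance to a transcript start was 2025 bp for members and 930 bp for other peaks. In the replicates these medians were 2013 ± 115.2 and 889.8 ± 122.0 bp. The excess of members was at middle distances: 25.5% lay 2 to 5 kb from a start against 14.9% of other peaks, while 9.70% and 9.43% lay beyond 10 kb.

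**Figure D4:**
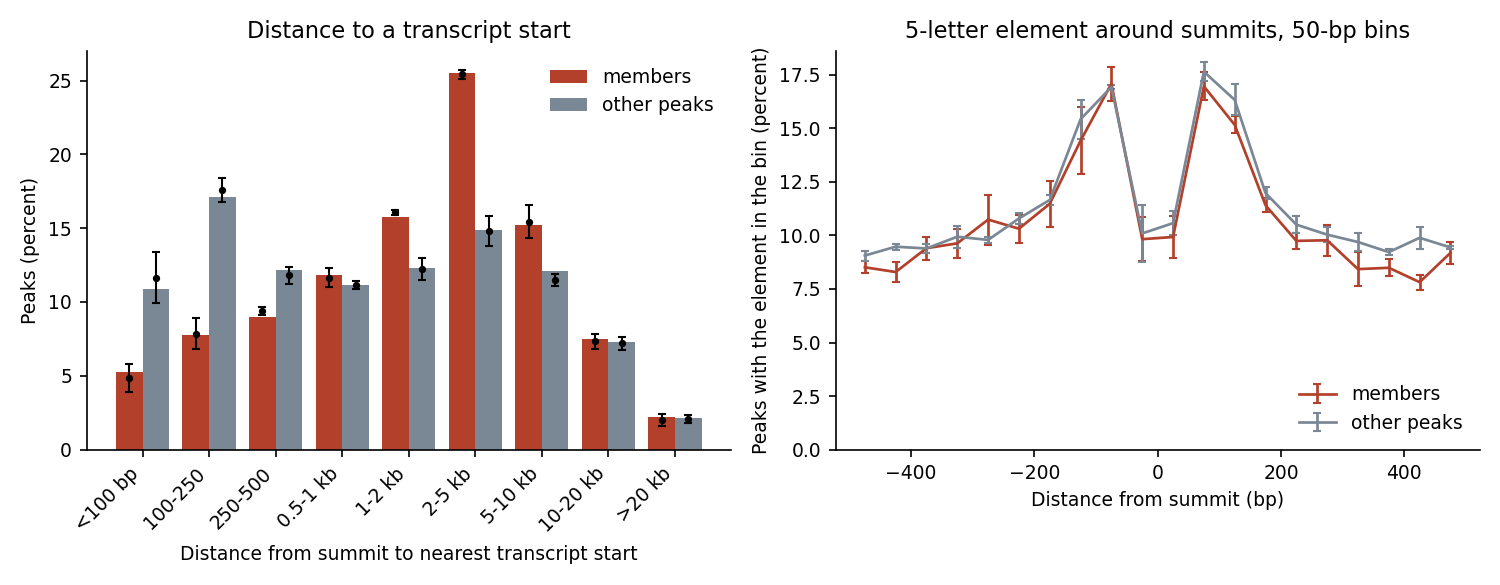
Left, percent of peaks (y axis) by distance from summit to the nearest transcript start (x axis, classes of unequal width) for members and other peaks, bars from the pooled set and points with bars the mean and SD of 3 replicate lists; right, percent of peaks with the 5-letter element in each 50-bp bin (y axis) by distance from the summit in bp, mean and SD of 3 replicate lists. Members are fewer than other peaks in the classes up to 500 bp and more in those from 1 to 10 kb, and the element is most frequent 50 to 100 bp from the summit in both groups.

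Introns held 61.2% of member summits and 54.2% of other summits, with replicate values of 60.6% ± 0.574 and 53.6% ± 0.999. Intergenic summits were 30.5% and 35.7%. Coding exons held 4 members and 24 other peaks, and 5′ UTRs 3.42% and 6.13%. Exons of non-coding RNA genes held 3.71% and 2.08%. Within 10 kb of a member there was a mean of 2.14 starts of protein-coding genes, against 3.03 around other peaks, while the median was 2 for both. No such start lay within 10 kb of 16.6% of members and 14.6% of other peaks. The means in the replicates were 2.17 ± 0.0434 and 3.07 ± 0.0612. Where a summit lay in a protein-coding gene, the median length of the gene was 28.4 kb for members and 24.1 kb for other peaks. Most loci still touched a promoter: 195 of 318 had at least 1 member at a transcript start, 22 had all members there, and of the 33 loci with at least 10 members 28 had one.

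Clusters were unevenly spread over the chromosomes. On 3L 32.8% of peaks were members (33.0% ± 1.15 in the replicates) and on X 31.3% (30.7% ± 2.07). The shares were lower on 2L (24.8%, replicates 24.3% ± 1.79), 3R (23.3%, 22.4% ± 2.28) and 2R (22.4%, 21.9% ± 0.571). None of the 15 peaks on chromosome 4 was a member, which allows a share of up to 20%. The arms held 84 loci on 3L, 71 on X, 65 on 3R, 54 on 2L and 44 on 2R. The arms differ in length, and per Mb the loci were 3.02 on X, 2.99 on 3L, 2.30 on 2L, 2.03 on 3R and 1.74 on 2R. The tagged gene itself was not in a cluster: the member nearest to ZnT49B (2R, 12652805 to 12655743) was 54.3 kb away.

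Of 13968 protein-coding genes, 2.31% (323 genes) held a member summit, and 8.68% had one within 10 kb. In the replicate lists 301, 322 and 337 genes held a member by the same rule. On the fewer peaks recovered among the strongest calls of 2 replicates, 195, 194 and 190 genes did without replicates 1, 2 and 3. The share rose with gene length. The holding genes had a median length of 17.8 kb against 2.16 kb for all, and the share that held a member was 0.506% for genes up to 5 kb, 5.10% at 5 to 20 kb, 12.7% at 20 to 50 kb and 17.3% above 50 kb. The shares of gene groups given next are to be read beside these length classes. Median lengths not given with a list were 22.4 kb for nuclear receptor, 12.4 kb for Wingless, 7.47 kb for Dpp and activin and 4.94 kb for Hedgehog genes. They were 13.7 kb for EGF and FGF receptor, 15.5 kb for imaginal disc and 5.76 kb for insulin and growth genes. For clock, Notch and ribosomal protein genes they were 9.79, 4.92 and 1.33 kb. Of the 323 genes, 173 held a member in all 3 replicate lists, 85 in 2, 45 in 1 and 20 in none. sbb held most member summits, 18 over more than 1 locus, with 21, 19 and 20 in the replicates. The lists of genes below were chosen with earlier results of these data known. Some genes stand in more than 1 list, so that the shares of the lists are not separate results.

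Genes of the ecdysone response were among the holders: 8 of 28 listed early genes and cofactors held a member (28.6%), with a median length of 19.4 kb. The shares in the replicates were 25%, 32.1% and 25%. Any peak, member or not, lay in 17 of the 28 (60.7%), against 13.3% of all protein-coding genes and 31.9% of those of 5 to 20 kb. How far the share of members follows from this was not tested. vri, a bZIP repressor gene of the ecdysone response and the clock, held 7 (replicates 8, 10 and 6). The nuclear receptor genes Hr4 and Eip75B held 6 and 5, with 5, 6, 5 and 5, 4, 6 in the replicates. Hr3, another receptor gene of this cascade, held 5, and the rule gave 0, 5 and 0 in the replicate lists. The peaks themselves were recovered: 4, 5 and 5 of the 5 were among the strongest calls of replicates 1, 2 and 3. A locus of 5 peaks can leave the rule when 1 summit is missing, so that a replicate count of 0 does not show that its peaks are absent. At the nuclear receptor gene ftz-f1, which is known for prepupal competence, 1 of 12 peaks was a member in the pool, and the replicates gave 1, 2 and 10. Over all nuclear receptor genes 4 of 21 held a member, and these 4 genes are also in the ecdysone list.

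Of the chromatin and corepressor genes 12 of 37 held a member (32.4%), at a median length of 12.2 kb. Replicates gave 27.0%, 24.3% and 27.0% (26.1% ± 1.56), against 27.4% ± 4.12 for the ecdysone list. Any peak, member or not, lay in 22 of the 37 (59.5%). Besides sbb the leading genes were psq with 12 members (13, 8 and 12 in the replicates), Trl, the gene of the GAGA factor, with 6 (6, 5 and 5), and Tet, the gene of a DNA and RNA dioxygenase, with 9. At Tet the rule gave 14, 0 and 12 in the replicate lists. Of the 7 members in the larger Tet locus, 7, 5 and 6 were among the strongest calls of replicates 1, 2 and 3. In the gene of the remodeller kis 5 members were found in the pool and none by the rule in any replicate list, although 4, 3 and 4 of them were among the strongest calls.

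In Wingless signalling 7 of 27 genes held a member (25.9%), and the replicates gave 18.5%, 22.2% and 18.5%. The receptor genes arr, an LRP co-receptor, and fz2, a Frizzled, held 8 and 6, with 10, 9, 8 and 6, 4, 7 in the replicates. nkd, an inducible inhibitor, held 4, with 4, 5 and 2. The kinase gene sgg held 5, and the rule gave 0, 5 and 0 in the replicate lists, whose strongest calls included 4, 5 and 4 of these peaks. The ligand gene wg held 1 member and had 5 within 10 kb.

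In Dpp signalling, the fly's BMP pathway, listed here with the activin branch, 5 of 23 genes held a member (21.7%), and the replicates gave 21.7%, 17.4% and 13.0%. shn held 16, with 14, 13 and 16 in the replicates. The type I receptor gene tkv held 6 (5, 5 and 6) and the inhibitory Smad gene Dad 2 (4, 2 and 3). The antagonist gene sog held 2 in the pool and 0 by the rule in every replicate, whose strongest calls included 2, 1 and 2 of them. In Hedgehog signalling 1 of 11 genes held a member, the receptor gene ptc with 5 (4, 4 and 4), and the ligand gene hh had 5 within 10 kb.

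In the EGF and FGF receptor pathways 4 of 24 genes held a member (16.7%), with replicates at 25%, 20.8% and 16.7%. aop held 10, with 9, 10 and 5 in the replicates. The kinase gene Raf held 8 (10, 8 and 9), and the secreted inhibitor gene aos 4 (4, 4 and 3). pnt, the ETS activator gene whose product acts opposite to Yan, held 5, with 5, 0 and 6 by the rule in the replicates, whose strongest calls included 5, 4 and 5 of the 5.

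Of 50 imaginal disc patterning genes 5 held a member (10%), led by ush with 16 (15, 14 and 13) and bowl, of the odd-skipped family, with 5 (5, 8 and 7). In insulin and growth signalling 3 of 25 did, led by InR, the insulin receptor gene, with 6 (6, 1 and 5). In the circadian clock 3 of 14 did: Pdp1, with 5 in the pool and in each replicate, and vri and sgg, which are in lists above. In the Notch pathway 1 of 26 held a member, mam, the gene of the coactivator Mastermind, with 5 (2, 5 and 6), although 7 genes had a member within 10 kb. Of 38 adhesion and guidance receptor genes, a list with a median length of 48.9 kb, 2 did (5.26%): kirre with 12 (9, 10 and 7) and Ptp10D with 5 (5, 0 and 0 by the rule, while 5, 4 and 4 of the 5 were among the strongest calls). No member lay in any of the 8 Hox genes, 24 muscle structural genes or 70 cuticle protein genes, in the pool or in any replicate list. Their median lengths were 30.6, 4.99 and 1.09 kb, and 4, 5 and 3 of them held any peak. At the shares of their length classes, 0 in lists of these sizes is near the background. Of 88 cytoplasmic ribosomal protein genes 1 held a member, RpL8.

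**Figure D5:**
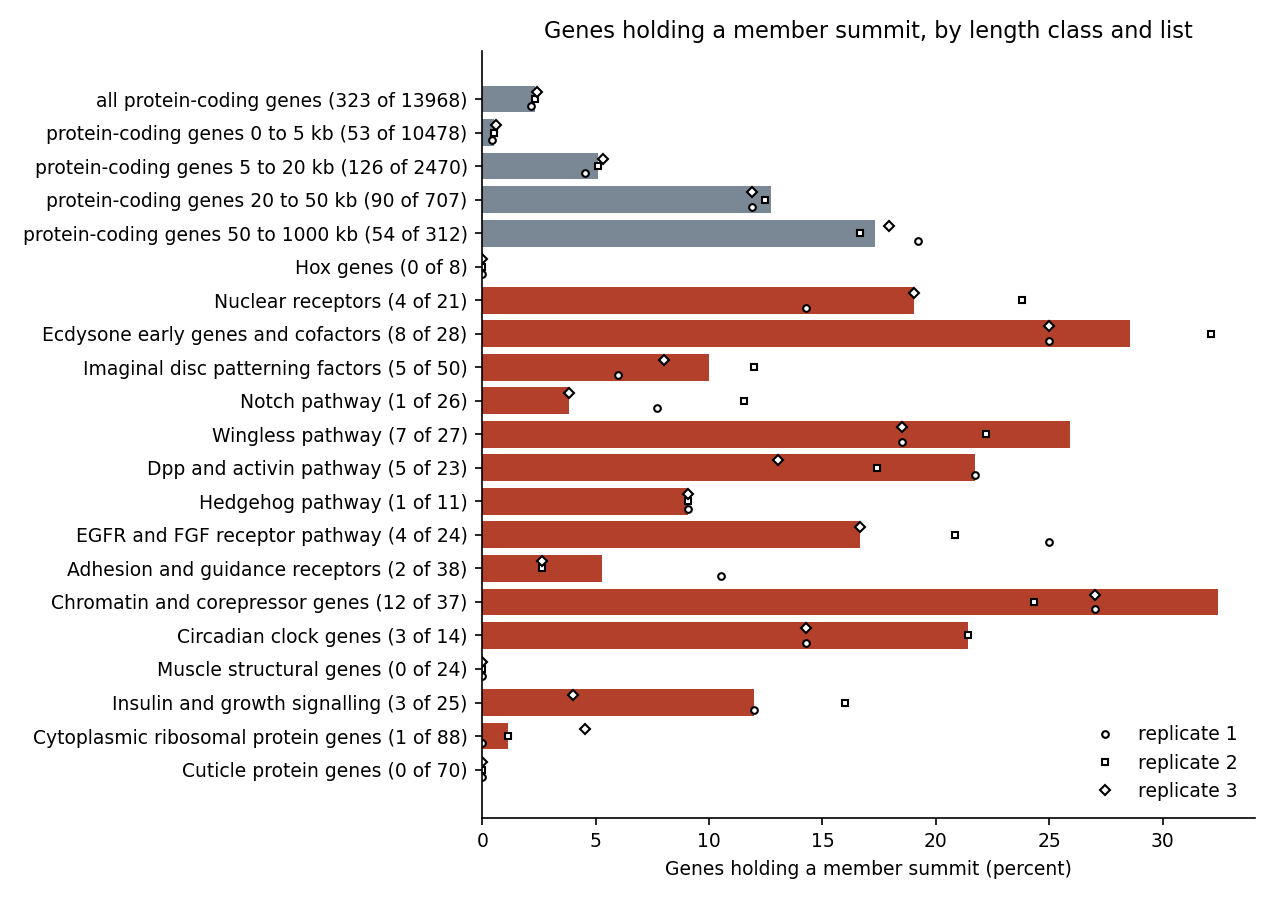
Percent of genes that hold a member summit (x axis) for all protein-coding genes, for 4 classes of gene length (grey) and for 16 gene lists (red), bars from the pooled set and points from the 3 replicate lists; counts stand beside the names. The share rises with gene length from 0.506% to 17.3%, chromatin and corepressor genes reach 32.4% in the pooled set and 24.3% to 27.0% in the replicates, and Hox, muscle and cuticle genes are at 0.

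The sequence under clustered peaks was like that under other peaks. The G+C content of the 201 bases around the summit was a mean of 34.0% in members and 34.4% in other peaks, with replicate values of 34.4% ± 0.237 and 34.7% ± 0.558 and a difference of -0.242 ± 0.388 percentage points. Windows 1 kb to either side of member summits had 40.9%. Motif matches were counted on both strands of the 201-base windows. The homeodomain core TAATTA was in 18.7% of members, 18.5% of other peaks, 18.6% of all peaks and 13.0% of the member flanks. The GATA element TGATAA was in 17.7% of members, of other peaks and of all peaks, and in 14.1% of the flanks. The run AAAAAAAA was in 20.5%, 19.5% and 19.8%, and in 14.2% of the flanks.

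The GAGA element GAGAG was in 22.5% of members, 21.7% of other peaks and 21.9% of all peaks, near its share of 23.5% in the flanks. The nuclear receptor half-site AGGTCA was in 4.17%, 4.09% and 4.11%, and in 5.41% of the flanks. The E-box CACGTG was in 1.77%, 1.57% and 1.62%, and in 2.38% of the flanks. The CA repeat CACACA was in 14.95% of members, 15.01% of other peaks and 14.99% of all peaks, and in 18.6% of the flanks. The CAGGTA element was in 3.31%, 4.05% and 3.85%, and in 3.46% of the flanks. The DNA replication-related element TATCGATA, which is known from core promoters, differed most in proportion: 10 members (0.571%) and 76 other peaks (1.61%) held it, against 1.33% of all peaks. In the replicates these shares were 0.602% ± 0.226 and 1.71% ± 0.180.

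The 5-letter element CAGTG, counted after the printed windows had been read and after all words of 6 to 8 letters had been ranked by their share at summits and in flanks, was in 43.9% of member windows, 45.1% of other windows and 44.8% of all, against 27.3% of the member flanks. In the replicates members had 43.0% ± 1.70 and other calls 44.3% ± 1.68. Longer words holding it were counted after the same ranking, so that their excess over the flanks is a description without a test. CAGTGTA was in 7.02% of members, 6.66% of other peaks and 6.76% of all, against 1.84% of the member flanks. CACTGAG, the same 5 letters on the other strand, was in 6.05%, 6.06% and 6.06%, against 1.51%, and ACAGTGG in 7.53%, 7.48% and 7.50%, against 2.52%. These words overlap in part, since each holds CAGTG or its complement.

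The element was more frequent 50 to 100 bp from the summit than next to it. In bins of 50 bp, 18.2% and 17.0% of members had it 50 to 100 bp to the left and to the right of the summit, but 9.93% and 9.76% in the bins next to the summit, and 8.45% and 8.39% in the bins 450 to 500 bp away. In the replicate lists the bins at 50 to 100 bp had 17.1% ± 0.792 and 17.0% ± 0.657, and the bins next to the summit 9.83% ± 1.04 and 9.93% ± 0.969. Other peaks had the same shape, with 17.9% and 19.1% at 50 to 100 bp and 9.24% and 10.3% at the centre. The base composition changed over the same distance: the G+C content of members was 31.8% and 32.2% in the central bins, 35.6% and 36.4% at 50 to 100 bp and 40.3% and 41.8% at 100 to 150 bp. The part of base composition in the placement of the element was not tested. The pattern was not particular to clusters, and no factor is named for it here.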

How the data were processed

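ChIP-seq peak lists of 3 biological replicates of 1 group were used. Column 7 of the deposited lists is the peak caller's signal value and column 9 a −log10 significance, as the authors deposited them in narrowPeak order; signal ranked peaks, and the −log10 values were read but support no result. Per the deposited README files each replicate list derives from its alignment and 1 further file common to all lists, and the IDR set derives from the replicate and pooled lists. The sources used here name no peak caller, aligner, IDR threshold or read depth. Members, loci and every comparison were computed in Python 3.11.15 with pandas 2.3.3 and numpy 2.4.6 on dm6 coordinates, with Ensembl release 115 genes and the RefSeq dm6 genome. The rule was tested on simulated peaks with planted clusters. A replicate call matched a peak when they overlapped by at least 1 bp. Loci carry the name of the protein-coding gene holding most member summits (otherwise a non-coding gene or the nearest start). Named were the 20 loci with most members, 5 with highest and 5 with lowest signal per peak, the 3 longest, the 3 with most unrecovered members, and up to 4 genes per list, with other genes named after their values were seen. Gene lists had 369 hand-written entries, of which 9 matched no gene, plus ribosomal and cuticle genes by name. The members, gene lists and motifs were chosen with earlier results of these data known; CAGTG words and the capitals were chosen after the sequences were seen. No test across samples was possible with 1 group; values are mean ± SD over replicates, and Wilson intervals cover counting error only. A further sequence window is not reported here.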

Additional observations from a re-analysis of the deposited data

How the results depend on the processing

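No paired analysis was possible because the study has 1 group. The counts follow the rule. A radius of 5 kb gave 641 members, 156 loci and 119 holding genes, and 20 kb gave 3278, 719 and 714. With the members unchanged, joining summits up to 5 kb apart gave 461 loci and up to 20 kb apart 296, against 318 by the main rule. Asking for 3 neighbours gave 2698, 509 and 543, for 6 neighbours 596, 109 and 92, and the peaks above the median signal 303, 80 and 55. Merging overlapping intervals gave 1336 members, 261 loci and 257 holding genes. In the locus sizes given above, overlapping peaks each count as a member. Without 1 replicate each, on the 4937 to 5001 peaks recovered in the other replicates, members were 1019 to 1056, loci 203 to 213 and holding genes 190 to 195; fewer peaks enter by construction.

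The share of members at a transcript start was 19.5% (5 kb), 27.5% (20 kb), 25.2% (3 neighbours), 15.9% (6 neighbours), 33.8% (window of 1000 bp) and 19.0% to 21.4% without a replicate. It stayed below that of other peaks in each setting run: the difference was -17.4 (5 kb), -15.7 (20 kb), -17.1 (3 neighbours), -21.2 (6 neighbours), -21.0 (above median signal), -17.4 (window of 1000 bp) and -20.4 to -18.5 percentage points without a replicate. The intron share was 58.8% (5 kb), 60.04% (20 kb), 56.5% (6 neighbours), 57.4% (above median signal) and 60.5% to 62.4% without a replicate. G+C content was 33.8% with overlapping intervals merged, 32.9% above the median signal, 32.0% within 50 bp, 38.1% within 200 bp and 33.6% without a replicate (33.56 to 33.60).

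The signal ratio in the pooled set was 1.08 by the main rule. It was 1.14 (5 kb), 1.15 (6 neighbours), 1.11 (merged intervals) and 1.02 to 1.04 without a replicate. The cause of its fall without a replicate was not tested. Recovery in every replicate was 80.7% (5 kb), 74.0% (20 kb), 74.98% (3 neighbours), 79.0% (6 neighbours), 74.9% (merged), 98.0% (above median signal), 69.5% (overlap of 0.5 of the peak) and 81.7% to 82.8% in the other 2 replicates. Of 92 values, 25 moved by less than the spread between replicates or, for counts, by less than 1.5 times, the dm3 lists among them. All counts among these, those of the dm3 lists included, are there by the 1.5-times limit only, and each moved by more than its replicate SD. Merging took the members from 1752 to 1336 and the dm3 lists gave 1533, while the SD between replicates was 31.1. Loci were 286 in the dm3 lists against 318, with an SD of 10.3. Without depth or a control list, a cluster that rests on many shallow calls cannot be told apart from one of firm peaks.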
